A study of Mus musculus with 29 samples.

Results

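Libraries from iPKR mice given asunaprevir (ASV) were set against libraries from iPKR mice given its vehicle. The comparison used 5 ASV and 4 vehicle libraries, 9 of the 29 libraries in the series, taken by their group labels from the raw count table. Each library held polyA RNA captured on tagged ribosomes (translating ribosome affinity purification) from mouse cortex at 6 months of age, and its cell type is labelled as microglia. All 9 mice had the genotype Cx3cr1CreErt2/+;Eef1a1LSL.NS3.eGFPL10a.iPKR/+. In such mice tamoxifen switches on a Cre recombinase made from the Cx3cr1 locus, a gene of microglia and other tissue macrophages. Cre then opens a cassette in Eef1a1 with the viral protease NS3, the ribosomal tag eGFP-L10a and iPKR, an inducible form of the kinase PKR. Tamoxifen was given by gavage at 4 to 6 weeks in 6 doses of 100 mg/kg. Treatment began at 4 to 5 months and was repeated biweekly for 4 weeks. Every mouse received VEGF at 1 µg/kg. In the ASV group 5 mg/kg ASV in DMSO and PEG300 followed by mouth after 30 minutes, and the vehicle group received the solvent alone at 10 ml/kg. Both groups carried the construct, and no plaque-free group without it received ASV, so effects of the drug itself and of iPKR cannot be told apart here.

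PKR is one of the kinases of the integrated stress response. They phosphorylate the translation initiation factor eIF2α, which lowers general protein synthesis, while the mRNA of the transcription factor ATF4 is translated more and ATF4 raises genes of amino acid supply, tRNA charging and stress. In the iPKR system NS3 cuts the kinase until ASV, an inhibitor of that protease, blocks the cut, so ASV serves as the inducer. In microglia, the resident macrophages of the brain, this response has been studied beside the interferon and plaque-associated programmes.

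Several properties of the libraries bear on every result below. The libraries held between 1.75 and 31.998 M counts, and vehicle replicate 2 was the deepest, with the next at 7.079 M. Reads of Y-linked genes went against the labelled sex in 4 of the 5 ASV libraries (replicates 1, 3, 4 and 5), in 0 of the 4 vehicle libraries, and in 4 of the other 20. The batch of each library comes from the same labels, and whether batch is right for those libraries was not tested. Values given within a batch below rest on these labels. The 16 homeostatic microglial markers measured, such as Csf1r, took 0.214% to 0.446% of counts in vehicle and 0.0762% to 0.878% in ASV libraries. In the 5 TRAP libraries, from mice that carried the tag without NS3 and iPKR and received tamoxifen but no VEGF, vehicle or ASV, they took 3.36% to 4.95%. The 11 neuron markers measured took 0.885% to 1.00% in vehicle, 0.717% to 2.38% in ASV and 0.119% to 0.169% in TRAP libraries, so the RNA cannot be taken as microglial alone. In such bulk libraries fewer cells of a type and less RNA per cell cannot be told apart.

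Among the 9 compared libraries, ASV replicates 3 and 4 both stood apart. ASV replicate 3 had the highest neuron share of the 9 (2.38%) and the lowest homeostatic share (0.0762%). Outside the comparison, 5xFAD iPKR replicates 1 and 2, from plaque-bearing iPKR mice given VEGF and ASV, had neuron shares of 3.19% and 3.65%. Like ASV replicate 3 they were of batch 1, with Y-linked reads against the labelled sex. Their glycolysis genes took 1.62% and 1.78% of counts, beside 1.90% in ASV replicate 3. Replicates 3 and 4 of that group had neuron shares of 0.613% and 0.5865%. A shared cause was not tested. ASV replicate 4 was the least like the others, with correlations of log2 levels from 0.78 to 0.83 against the other 8 libraries. Genes that span over 200 kb took 14.7% of its counts, against 6.82% to 10.1% in the other 8, and nuclear long noncoding RNAs such as Meg3 took 0.504% against 0.0428% to 0.3995%. Endothelial markers took 0.0385% in ASV replicate 1 and 0.0437% in ASV replicate 4, against 0.00482% to 0.0066% in vehicle libraries. The plot of marker shares shows the 9 compared libraries beside TRAP.

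**Figure D1:**
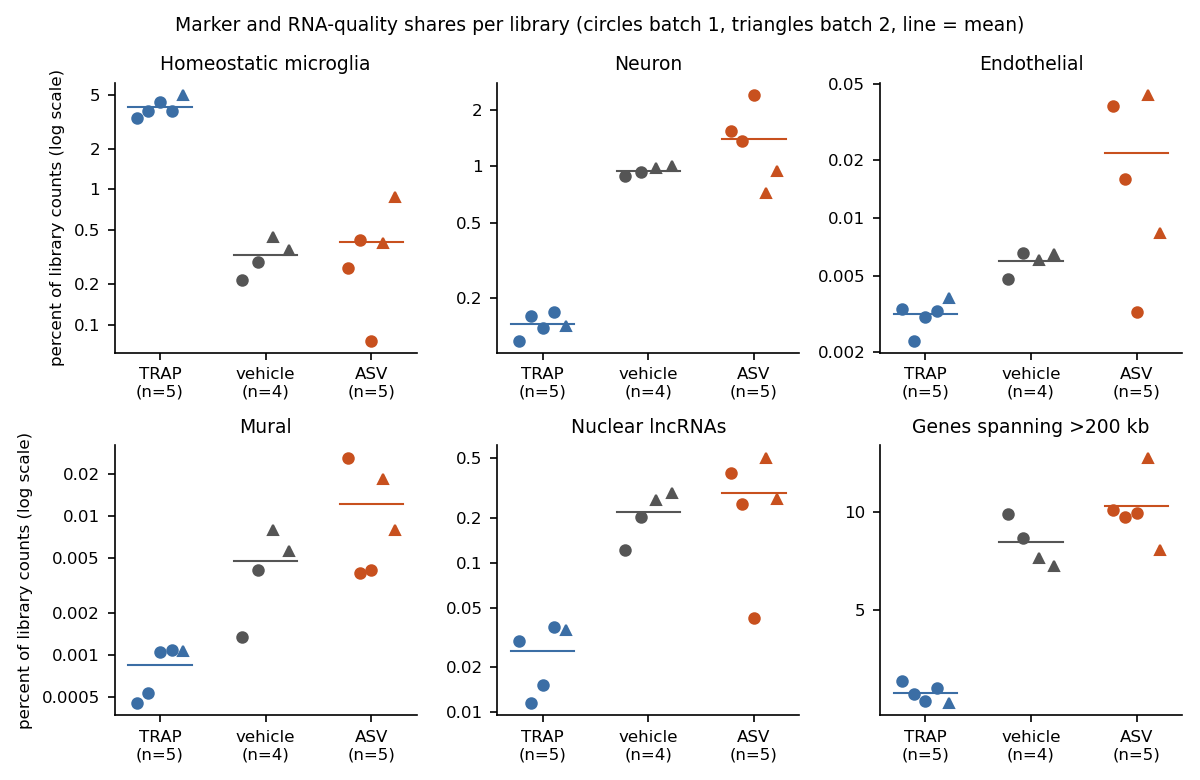
Percent of each library's counts (log axis) in marker lists and in genes that span over 200 kb, for 5 TRAP, 4 vehicle and 5 ASV libraries. Points are libraries (circles batch 1, triangles batch 2) and lines are group means. Homeostatic shares are below 0.9% in all 9 iPKR libraries, and ASV replicate 4 is highest for nuclear noncoding RNAs and long genes.

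In edgeR's quasi-likelihood test with Benjamini-Hochberg adjustment, 68 of 16074 genes (0.423%) had an adjusted p under 0.05, of which 51 (0.317%) rose and 17 (0.106%) fell with ASV. Rising genes included Prpf8, a core protein of the spliceosome, Ubr3, a ubiquitin ligase, and Ddx58, which encodes the cytosolic RNA sensor RIG-I. Falling genes included the transcriptional repressor gene Nfil3 and the immediate-early gene Ier5. Of all genes tested, 1.05% had all 5 ASV libraries above all 4 vehicle libraries and 2.39% had them below. These shares stand beside every lack of overlap given below. The model took its spread from all 29 libraries. Besides the 2 iPKR groups compared here, these were 5xFAD iPKR and 4 groups without the construct. Those 4 groups are labelled TRAP, 5xFAD TRAP, Eif2A and 5xFAD Eif2A. By the labels, 5xFAD TRAP mice were given VEGF and ASV, while TRAP, Eif2A and 5xFAD Eif2A mice were given neither. The 2 iPKR groups varied more between libraries (biological coefficient of variation 0.478) than the 4 groups without the construct (0.27). A fit to the 9 libraries alone, with its own filter (13509 genes), size factors and spread, passed 0 genes, with 1421 at an unadjusted p under 0.05. The same fit to the 3 groups that carry the construct (14071 genes) passed 0, with 1290 at an unadjusted p under 0.05. DESeq2 called 525 genes with the same model. With sex taken from Y-linked reads 14 genes passed, and without a batch term 20. Leaving out 1 library gave 33 calls without vehicle replicate 1, 19 without vehicle replicate 2, 34 without vehicle replicate 4, 44 without ASV replicate 1, 179 without ASV replicate 2 and 10 without ASV replicate 4. Without both ASV replicates 3 and 4 it was 14. Libraries of batch 1 alone gave 314 calls, 26 of them among the 68, and batch 2 alone gave 23, of which 6 were among the 68.

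**Figure D2:**
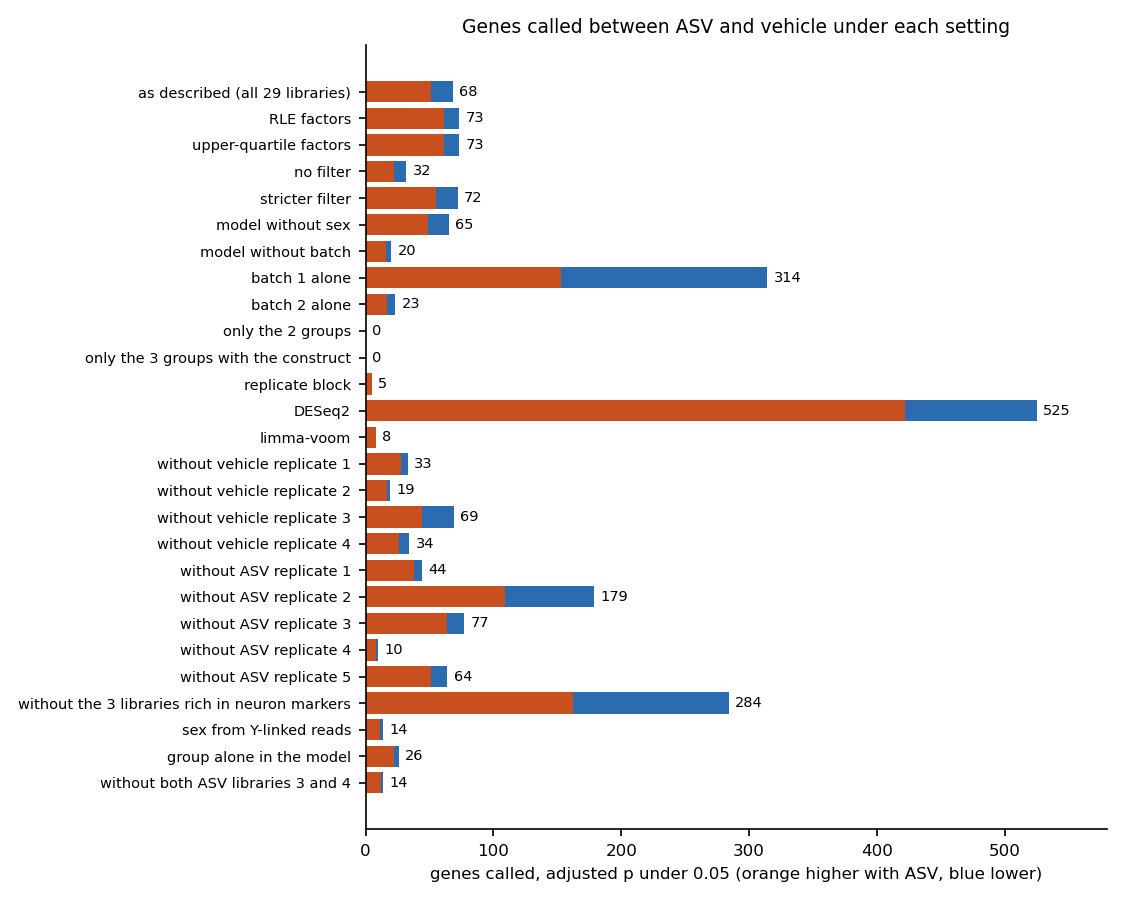
Number of genes with an adjusted p under 0.05 (x axis) between ASV and vehicle under each setting; orange is higher and blue lower with ASV. The number runs from 0, when the model is fitted to the iPKR libraries alone, to 525 with DESeq2.

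Among the 68 genes only Prpf8, Ubr3, Ddx58, Shcbp1 and Nfil3 kept an adjusted p under 0.05 whichever of the 9 libraries was left out, and they also kept it with sex from Y-linked reads or without sex in the model. The other 63 lost it without at least 1 library. All 5 missed it in the fit to the 9 libraries alone (adjusted p from 0.189 for Prpf8 to 0.2385 for Ddx58), and no gene passed in every fit. Of the 68 genes, 67 had the same sign in both batches. They were called in a fit to both batches together, so a shared sign is no separate support for the calls.

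**Figure D3:**
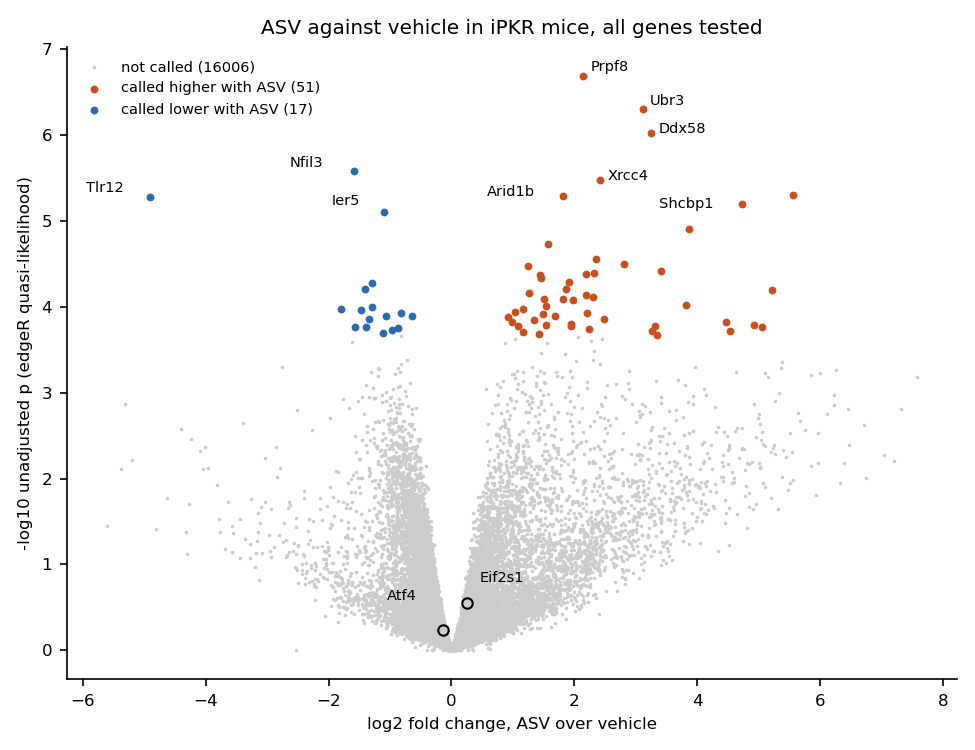
Log2 fold change (ASV over vehicle, x axis) and -log10 of the unadjusted p (y axis) of the 16074 genes tested. The 51 genes called higher are orange, the 17 called lower blue, and the circles mark Eif2s1 and Atf4, which lie near 0.

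Promoter sequences of the genes with these steadier calls are shown because an interferon-response motif lies in one of them. They are from RefSeq (GRCm38.p6), which matched 4 of the 5 genes (Shcbp1 has none in the table), and run from 200 bases before the transcript start to 30 after it, in the gene's own direction. Ddx58 is at chr4:40239796-40240025 on the minus strand, Prpf8 at chr11:75486577-75486806 on the plus strand, Ubr3 at chr2:69897046-69897275 on the plus strand and Nfil3 at chr13:52981010-52981239 on the minus strand. Capitals mark a match to the ISRE.
Ddx58: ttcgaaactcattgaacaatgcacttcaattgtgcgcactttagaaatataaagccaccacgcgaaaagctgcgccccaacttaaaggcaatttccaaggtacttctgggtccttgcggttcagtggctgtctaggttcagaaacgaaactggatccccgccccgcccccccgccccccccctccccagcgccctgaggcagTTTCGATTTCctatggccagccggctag
Prpf8: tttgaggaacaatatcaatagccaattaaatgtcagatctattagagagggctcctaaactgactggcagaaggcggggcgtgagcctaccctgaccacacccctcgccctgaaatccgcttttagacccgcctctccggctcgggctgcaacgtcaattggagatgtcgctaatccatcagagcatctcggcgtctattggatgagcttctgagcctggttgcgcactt
Ubr3: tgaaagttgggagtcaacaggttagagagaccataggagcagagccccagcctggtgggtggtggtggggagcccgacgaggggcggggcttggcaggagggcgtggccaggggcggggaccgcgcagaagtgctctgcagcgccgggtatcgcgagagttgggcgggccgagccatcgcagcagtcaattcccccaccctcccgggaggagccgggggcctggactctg
Nfil3: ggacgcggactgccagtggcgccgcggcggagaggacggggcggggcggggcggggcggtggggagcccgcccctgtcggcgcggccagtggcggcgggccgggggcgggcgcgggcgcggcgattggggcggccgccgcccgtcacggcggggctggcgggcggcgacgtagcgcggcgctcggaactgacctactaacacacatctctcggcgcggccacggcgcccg
The motifs searched on both strands were the interferon-stimulated response element (ISRE; GAAA, any 2 bases, GAAA), the C/EBP-ATF element bound by ATF4 (TGATGNAA) and the cyclic AMP response element (CRE, TGACGTCA), in windows from 250 bases before the start to 50 after. Ddx58 had 1 ISRE match, on the reverse strand, that begins at base 3 of the transcript. Of the 40 rising genes with a promoter in the table, 3 held an ISRE (7.5%; Ddx58, Mecom and Smc2), beside 3.81% of the 11501 tested genes with one and 3.44% of all 32851 windows. The C/EBP-ATF element was in 2 of the 40 (5.0%; Lgals3bp and Manba) beside 2.92% of tested genes and 3.97% of all windows. The CRE was in 1 of the 40 (2.5%; Lrguk), beside 3.36% of tested genes and 1.79% of all windows. Of 14 falling genes with a promoter, 1 held a CRE (7.14%; Nectin2), 0 an ISRE and 0 a C/EBP-ATF element. A match of letters is no evidence that a factor binds there.

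The genes of the pathway that the construct addresses did not pass the test. Eif2s1, which encodes eIF2α (chromosome 12, 78861819 to 78887010), was at 51.3, 43.2, 63.1 and 53.1 CPM (counts per M of TMM-scaled library size) in vehicle replicates 1 to 4 and at 101.6, 59.8, 116.1, 39.5 and 43.3 CPM in ASV replicates 1 to 5. The groups overlapped, with ASV libraries both above and below the vehicle range, and the log2 fold change was 0.25 (95% interval -0.22 to 0.73, adjusted p = 0.6277). Atf4 mRNA (chromosome 15, 80255184 to 80257541) was at 163.8, 178.8, 96.5 and 128.6 CPM in vehicle and at 132.3, 185.5, 53.3, 113.9 and 153.4 CPM in ASV. Its log2 fold change was -0.14 (95% interval -0.67 to 0.38, adjusted p = 0.8337). That interval took its spread from all 29 libraries (biological coefficient of variation 0.435), while the 9 compared here varied more (0.478). The fit also used the labelled sex, which Y-linked reads went against in 4 of the 5 ASV libraries. The interval therefore sets no firm upper limit on a rise of the mRNA. ATF4 is controlled mainly at translation, and the protein was not measured here. Ddit3, which encodes the stress factor CHOP, differed by -0.06 (95% interval -0.69 to 0.57).

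None of the 4 kinases of eIF2α passed. Eif2ak2, which encodes PKR, was at 7.81, 2.75, 0.21 and 0.781 CPM in vehicle and at 3.07, 0, 0.295, 3.25 and 7.63 CPM in ASV, and both groups reached nearly the same highest level. Its log2 fold change of 0.10 had a wide interval (-1.57 to 1.77). Whether reads of the iPKR transgene were counted under this symbol is not given in the sources used here. The haem-sensitive kinase gene Eif2ak1 differed by -0.01 (95% interval -0.51 to 0.49), the ER kinase gene Eif2ak3 by -0.46 (-1.09 to 0.17) and the amino acid sensor gene Eif2ak4 by -0.21 (-0.91 to 0.50). Among the 21 integrated stress response genes tested 0 rose and 0 fell, and their median log2 fold change was -0.01, beside 0.01 for all genes. The smallest p was that of Ppp1r15b, which encodes a subunit of the eIF2α phosphatase (-0.42 ± 0.19 SE, adjusted p = 0.2677). Its stress-induced relative Ppp1r15a lay at 85.4 to 121.9 CPM in vehicle and at 33.9 to 87.2 CPM in ASV (-0.73 ± 0.36 SE, adjusted p = 0.312).

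Known targets of ATF4 gave no call either. Of 17 genes of the ATF4 circuit tested 0 passed, the median was -0.14, and 13 values were negative. The transcription factor gene Atf3, induced by stress, was at 3.63, 0.667, 0.421 and 2.34 CPM in vehicle and at 0.438, 2.64, 0, 12.01 and 4.78 CPM in ASV, where replicate 4 was highest (log2 fold change 1.41 ± 0.68 SE, adjusted p = 0.2982). Trib3, a pseudokinase gene that ATF4 and CHOP induce, differed by -0.73 (95% interval -1.92 to 0.46) and Chac1, a glutathione-degrading enzyme gene, by -0.52 (-1.42 to 0.37). Among 20 genes of amino acid synthesis and transport 0 passed (median 0.25). Asns, the asparagine synthetase gene, was at 79.1 to 121.1 CPM in vehicle and at 186.6, 184.0, 431.8, 75.4 and 75.2 CPM in ASV. The ASV libraries of batch 1 were thus above the vehicle range and those of batch 2 below it. Its log2 fold change was 0.58 (95% interval -0.38 to 1.53).

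The 20 cytosolic tRNA synthetase genes, which charge tRNAs with amino acids, had 19 positive values and a median of 0.29, and 0 of them passed. The cysteine enzyme gene Cars was above the vehicle range in all 5 ASV libraries (41.5 to 91.6 against 24.3 to 40.2 CPM; 0.93 ± 0.31 SE, adjusted p = 0.1509). Aars, for alanine, reached 810.3 CPM in ASV replicate 3, while the other ASV libraries lay at 67.98 to 166.5 and vehicle libraries at 63.1 to 112.3 CPM. As a share of counts the synthetases took 0.1445% to 0.1675% in vehicle. In ASV replicates 1 to 5 they took 0.255%, 0.2085%, 0.435%, 0.1547% and 0.157%, so replicates 1 to 3 were above the vehicle range and replicates 4 and 5 within it. Replicate 3 was the library richest in neuron markers. The part of the neuron share in these values was not tested. ER chaperone genes (0 of 18 passed, median -0.05), ribosomal protein genes (0 of 67, -0.08) and translation factor genes (0 of 29, 0.02) lay near the median of all genes.

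**Figure D4:**
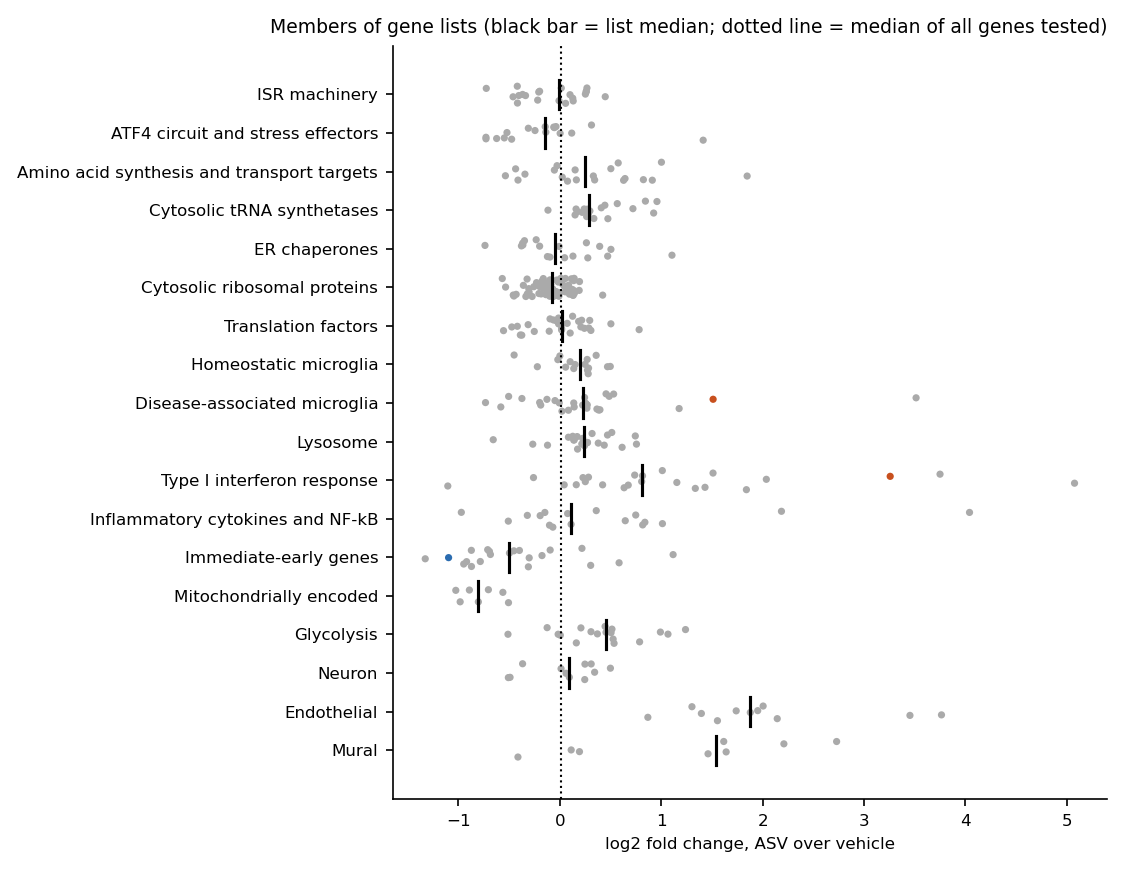
Log2 fold change (ASV over vehicle) of each tested member of 18 gene lists. Grey points were not called, orange were called higher and blue lower; black bars are list medians and the dotted line the median of all genes (0.01). Genes of the integrated stress response lie around 0, and endothelial markers lie to the right.

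Among rising genes the smallest p was that of Prpf8. Prpf8 (chromosome 11, 75486816 to 75509449) was at 319.7, 223.1, 35.1 and 49.9 CPM in vehicle replicates 1 to 4 and at 503.9, 679.4, 1334, 355.7 and 296.3 CPM in ASV replicates 1 to 5. Within batch 1 the ASV libraries 1 to 3 were all above the vehicle libraries 1 and 2, and within batch 2 the ASV libraries 4 and 5 were above the vehicle libraries 3 and 4, although the pooled groups overlapped. Prpf8 was called in a fit with a batch term, so this order is no separate support. The share of all genes with such an order within batches was not counted. The log2 fold change was 2.15 ± 0.31 SE (156.9 ± 138.0 against 633.9 ± 418.5 CPM, SD, n = 4 and 5; adjusted p = 0.003282 in edgeR's test), with 1.40 in batch 1 and 2.86 in batch 2. For comparison, Prpf8 was at 45.4 to 150.3 CPM in TRAP libraries. Arid1b, a subunit gene of the BAF chromatin remodelling complex, was at 172.4, 78.2, 83.9 and 98.0 CPM in vehicle and at 172.2, 254.8, 575.6, 411.6 and 538.9 CPM in ASV. Only vehicle replicate 1 and ASV replicate 1 met (1.82 ± 0.32 SE, adjusted p = 0.01048), and the call was lost without ASV replicate 4 (adjusted p = 0.06841). Aatf, a gene of a nucleolar protein, rose by 1.44 ± 0.30 SE with all 5 ASV libraries (18.3 to 40.9 CPM) above vehicle (6.42 to 11.8 CPM), and the call was lost without ASV replicate 4 (adjusted p = 0.1836) or vehicle replicate 1, 3 or 4 (0.05546 to 0.07701).

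Polr2a, Srrm2 and Dhx34, genes of transcription and RNA processing, were picked after their values were seen. Polr2a, which encodes the largest subunit of RNA polymerase II, rose by 1.43 ± 0.33 SE (adjusted p = 0.04921) with overlapping groups (5.47 to 24.6 against 20.2 to 65.7 CPM). Srrm2, a protein gene of nuclear speckles, rose by 0.99 ± 0.23 SE (adjusted p = 0.04742) and the RNA helicase gene Dhx34 by 1.55 ± 0.34 SE (adjusted p = 0.04639). All 3 calls were lost without ASV replicate 4, where the adjusted p was 0.28, 0.2847 and 0.1836, and without vehicle replicate 1 or 2 (0.05347 to 0.1412). Polr2a was also lost without vehicle replicates 3 or 4 and ASV replicates 1 or 3, Srrm2 without vehicle replicate 4 or ASV replicate 3, and Dhx34 without vehicle replicate 3 or ASV replicate 2.

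Ubr3 (chromosome 2, 69897246 to 70024013), a ubiquitin ligase gene related to the N-degron ligases, was at 1295, 257.0, 65.6 and 56.9 CPM in vehicle and at 2116, 2613, 7577, 1573 and 793.9 CPM in ASV. Vehicle replicate 1 alone lay within the ASV range, and within each batch every ASV library was above every vehicle library. As for Prpf8, that order is no separate support for the call. The log2 fold change was 3.11 ± 0.48 SE (adjusted p = 0.003995), with 2.07 in batch 1 and 4.21 in batch 2. TRAP libraries held 44.2 to 161.2 CPM.

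The RNA sensor gene Ddx58 (chromosome 4, 40203773 to 40239828) was at 0.558, 0.639, 0.841 and 0.781 CPM in vehicle and at 2.19, 9.81, 8.84, 11 and 1.81 CPM in ASV. All 5 ASV libraries were above all 4 vehicle libraries, an order that 1.05% of all genes showed. The log2 fold change was 3.26 ± 0.52 SE (adjusted p = 0.005134), and TRAP libraries were higher than both groups, at 24.1 to 43.3 CPM. Without both ASV replicates 3 and 4 its adjusted p was 0.05271. It was the 1 call among 23 type I interferon response genes, of which 21 had a positive value, with a median of 0.81 beside 0.01 for all genes. At an unadjusted p under 0.05, 10 of the 23 were higher and 0 lower, where 8.95% of all genes were higher and 7.42% lower.

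None of the other 22 interferon genes passed. Oasl2, an interferon-induced gene of the OAS family, was at 5.30, 6.72, 0.21 and 0.447 CPM in vehicle and at 12.3, 12.3, 6.78, 6.96 and 4.52 CPM in ASV (1.51 ± 0.59 SE, adjusted p = 0.202). Irf7, an interferon regulatory factor gene, lay at 0.837 to 3.75 CPM in vehicle and 2.06 to 6.06 CPM in ASV (1.15 ± 0.49 SE, adjusted p = 0.2377). Isg15, among the genes most readily induced by interferon, lay at 1.34 to 3.78 CPM in vehicle and 0.561 to 4.39 CPM in ASV (-0.26 ± 0.65 SE). Ifit3 differed by 0.25 (95% interval -0.96 to 1.46). As a share of counts the list took 0.0094% to 0.0135% in vehicle and 0.0133% to 0.0262% in ASV libraries, while TRAP libraries held 0.0447% to 0.0847%. Homeostatic markers, which mark the microglial part of the RNA, were at a median of 0.20 in the same comparison with 13 of 16 positive, and their part in the interferon values was not tested.

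Parp14 and Rel were picked after their values were seen, for their place in immune signalling. Parp14, an interferon-induced ADP-ribosyltransferase gene, was at 1.95, 0.111, 2.31 and 2.23 CPM in vehicle and at 4.82, 6.23, 4.12, 16.7 and 7.24 CPM in ASV (2.48 ± 0.56 SE, adjusted p = 0.04725). Rel, an NF-κB subunit gene of immune cells, was at 0.837, 1.86, 3.15 and 4.91 CPM in vehicle and at 7.01, 12.8, 10.9, 9.65 and 8.53 CPM in ASV (1.86 ± 0.39 SE, adjusted p = 0.04077). Neither pair of groups overlapped, where 1.05% of all genes had every ASV library above every vehicle library. Both calls were lost without ASV replicate 4 (adjusted p = 0.2138 for Parp14 and 0.1298 for Rel) and without vehicle replicate 1 or 2, and that of Parp14 also without vehicle replicate 3 or 4 or ASV replicate 5. Lgals3bp, a secreted glycoprotein gene, rose from 3.63 to 13.5 CPM in vehicle to 13.9 to 33.6 CPM in ASV (1.51 ± 0.33 SE, adjusted p = 0.04273), a call lost without vehicle replicate 1, 2 or 3 or ASV replicate 5 (adjusted p from 0.05473 to 0.1139). It was the 1 call among 27 genes of the plaque-associated microglial programme, whose median was 0.23.

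**Figure D5:**
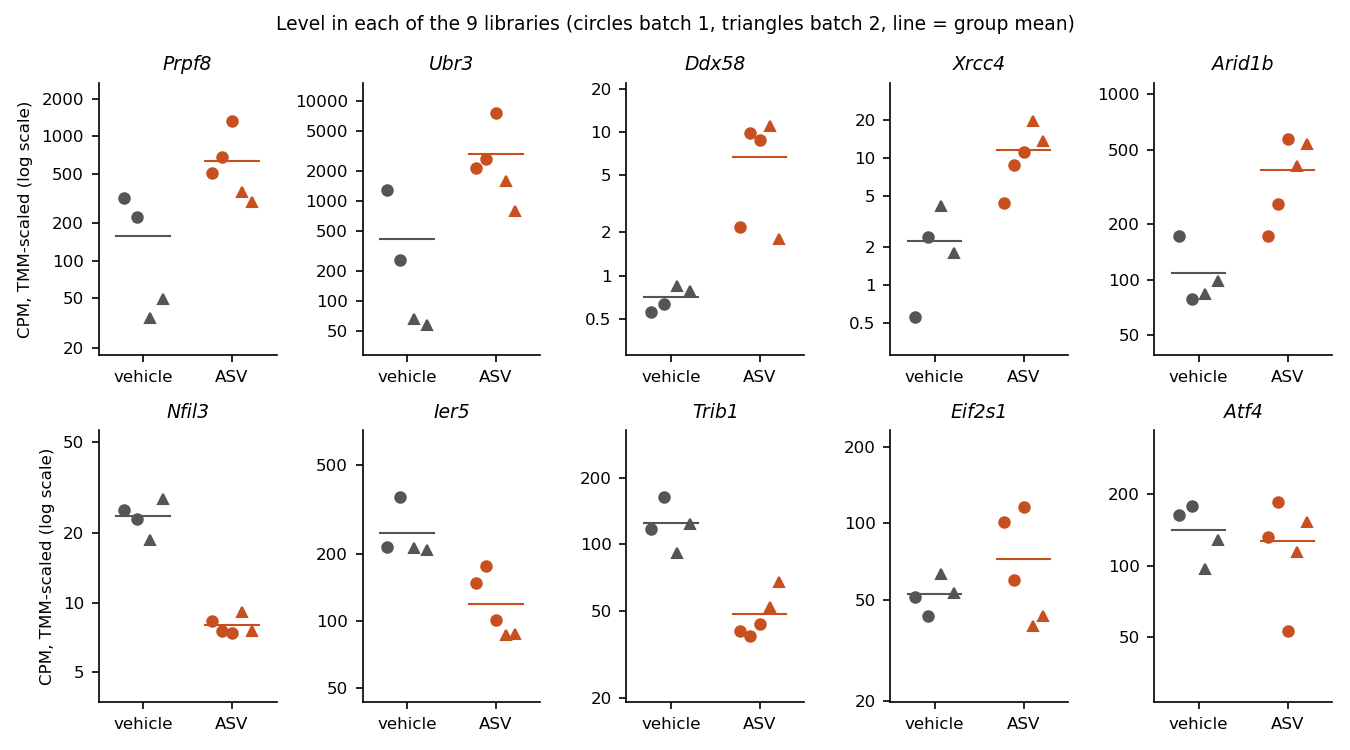
TMM-scaled CPM (log axis) of 10 genes in the 4 vehicle and 5 ASV libraries; circles are batch 1, triangles batch 2 and lines group means. For Ddx58, Xrcc4, Nfil3, Ier5 and Trib1 the groups do not overlap, for Prpf8 and Ubr3 they separate within each batch, and for Eif2s1 and Atf4 they overlap. The share of all genes that separate within each batch was not counted.

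Other rising genes had varied roles. Shcbp1 (chromosome 8, 4735976 to 4779567), a gene linked to cell division, was at 0, 0.25, 0 and 0.223 CPM in vehicle and at 4.38, 1.70, 3.83, 5.61 and 10.1 CPM in ASV. The groups did not overlap, and the fitted log2 fold change (4.73 ± 0.85 SE, adjusted p = 0.01121) rests on few reads in vehicle. Xrcc4 (chromosome 13, 89774027 to 90089608), whose product joins broken DNA ends, was at 0.558, 2.39, 4.21 and 1.79 CPM in vehicle and at 4.38, 8.87, 11.2, 19.5 and 13.7 CPM in ASV (2.42 ± 0.42 SE, adjusted p = 0.01048). Among the fits that leave out 1 library, its call was lost without ASV replicate 4 (adjusted p = 0.05137). Nme7, a gene of the nucleoside diphosphate kinase family, rose by 1.58 ± 0.31 SE with no overlap (4.81 to 15.1 against 19.2 to 40.9 CPM, adjusted p = 0.02476). Pla2g4a, the cytosolic phospholipase A2 gene that releases arachidonic acid, was at 0.837 to 5.89 CPM in vehicle and at 18.8, 25.7, 3.24, 31.9 and 12.7 CPM in ASV (2.19 ± 0.45 SE, adjusted p = 0.03652), with only ASV replicate 3 inside the vehicle range. The calls of Nme7 and Pla2g4a were lost without ASV replicate 4 (adjusted p = 0.1028 and 0.179) or vehicle replicate 2 or 4 (0.05711 to 0.09575), and that of Pla2g4a also without vehicle replicate 1 (0.07312).

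Rising genes also included some tied to vessels or to particular libraries. Acvrl1, a receptor gene of the TGF-β family found on endothelial cells, was at 1.95, 0.111, 1.05 and 1.01 CPM in vehicle and at 21.9, 1.89, 0.884, 13.8 and 7.11 CPM in ASV (3.41 ± 0.70 SE, adjusted p = 0.03652). It was highest in ASV replicates 1 and 4, the libraries with the largest endothelial shares, and whether those shares account for it was not tested. Mecom, a zinc-finger transcription factor gene, was at 1.67 to 4.84 CPM in vehicle and at 19.3, 15.3, 2.95, 40.4 and 11.8 CPM in ASV (2.81 ± 0.56 SE, adjusted p = 0.03557), again highest in replicate 4 and, with ASV replicate 3, overlapping the vehicle range. Vwa5a rose by 1.25 ± 0.25 SE (10.3 to 13.2 against 9.31 to 58.3 CPM, adjusted p = 0.03557), and here ASV replicate 4 was the lowest of the 9 libraries. These 3 calls were lost without vehicle replicate 2 (adjusted p = 0.1039, 0.09575 and 0.1061) or 4 (0.05916 to 0.06468). That of Acvrl1 was also lost without vehicle replicate 3 or ASV replicate 1 or 4 (0.05087 to 0.1121), that of Mecom without ASV replicate 4 (0.1298) and that of Vwa5a without vehicle replicate 1 (0.08122). Called genes of the X chromosome, such as Dmd, are not described because labelled sex and Y-linked reads disagree.

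Where each rising gene was highest is given for all 51. ASV replicate 4 was the highest ASV library in 28 of them and the lowest in 4, and ASV replicate 3 was the highest in 14 and the lowest in 14. The 48 rising genes with a known span had a median span of 76.5 kb, against 31.1 kb for the 17 falling genes and 25.1 kb for all genes tested, and 11 of the 48 (22.9%) spanned over 200 kb, against 6.60% of all. The share of counts in such long genes was highest in ASV replicate 4, and its part in these calls was not tested.

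Among the 17 falling genes the smallest p was that of Nfil3. Nfil3 (chromosome 13, 52967209 to 52981073), a basic leucine zipper repressor gene of immune and circadian control, was at 25.4, 23.0, 18.7 and 28.1 CPM in vehicle and at 8.33, 7.55, 7.36, 9.09 and 7.495 CPM in ASV. The 5 ASV libraries lay close together and below all vehicle libraries, as 2.39% of all genes did. It fell by 1.58 on the log2 scale (SE 0.27; 23.8 ± 3.99 against 7.97 ± 0.733 CPM, SD, n = 4 and 5; adjusted p = 0.01048), with -1.66 in batch 1 and -1.49 in batch 2. TRAP libraries held 10.8 to 18.7 CPM and 5xFAD iPKR libraries, from plaque-bearing iPKR mice given ASV, 13.02 to 21.65 CPM; both ranges were above the ASV group, and the second overlapped the vehicle group.

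Ier5 (chromosome 1, 155096361 to 155099636), an immediate-early gene that acts with heat shock factor, was at 214.5, 358.0, 212.8 and 208.5 CPM in vehicle and at 147.2, 175.3, 100.7, 86.0 and 86.8 CPM in ASV. All ASV libraries were below all vehicle libraries (log2 fold change -1.10 ± 0.20 SE, adjusted p = 0.01261), and the call was lost without vehicle replicate 2 (adjusted p = 0.08429) or ASV replicate 4 (0.07403). It was the 1 call among 21 immediate-early genes, whose median was -0.50, with 17 negative values. At an unadjusted p under 0.05, 6 of the 21 were lower and 0 higher, where 7.42% of all genes were lower. Dusp1, a MAP kinase phosphatase gene, lay at 123.9 to 221.3 CPM in vehicle and 80.96 to 116.4 CPM in ASV (-0.71 ± 0.27 SE, adjusted p = 0.1983). Fos and Jun, classic members, differed by 0.30 (95% interval -0.85 to 1.46) and -0.10 (-0.59 to 0.40), and Nr4a1 by -0.78 (-1.67 to 0.10).

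Other falling genes were Trib1, Hivep1, Mfhas1 and Tlr12. Trib1, a pseudokinase gene that directs the breakdown of C/EBPα, was at 118.0, 165.1, 91.9 and 123.7 CPM in vehicle and at 40.3, 38.3, 43.3, 51.7 and 67.2 CPM in ASV (-1.34 ± 0.30 SE, adjusted p = 0.04725). Hivep1, a zinc-finger gene that binds κB-like motifs, fell from 119.7 to 259.4 CPM in vehicle to 23.0 to 64.4 CPM in ASV (-1.41 ± 0.30 SE, adjusted p = 0.04077). Mfhas1, a leucine-rich repeat gene tied to Toll-like receptor signalling, lay at 172.8 to 246.1 CPM in vehicle and 52.7 to 107.6 CPM in ASV (-1.29 ± 0.28 SE, adjusted p = 0.04639). None of these 3 overlapped between groups, an order that 2.39% of all genes showed. All 3 calls were lost without ASV replicate 4 (adjusted p = 0.1968 for Trib1, 0.1545 for Hivep1 and 0.1949 for Mfhas1) and without vehicle replicate 1 or 2 (0.06802 to 0.1341). That of Trib1 was also lost without vehicle replicate 4 or ASV replicate 1 or 2, that of Hivep1 without ASV replicate 5, and that of Mfhas1 without vehicle replicate 4 or ASV replicate 1, 3 or 5. Tlr12, a Toll-like receptor gene, was at 0, 2.64, 1.47 and 1.01 CPM in vehicle and was detected in 1 of 5 ASV libraries, at 0.112 CPM (adjusted p = 0.01048, and 0.08429 without vehicle replicate 2). Vehicle replicate 1 was at 0 too, and TRAP libraries held 13.1 to 22.9 CPM.

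The remaining falling genes named by p were Dnajc21, Disp1, Fam78a, Tbc1d9b, Tmed4 and Uspl1. Dnajc21, a co-chaperone gene of ribosome assembly, was at 75.1, 147.2, 105.1 and 69.1 CPM in vehicle and at 54.3, 58.7, 31.8, 19.9 and 35.8 CPM in ASV (-1.30 ± 0.27 SE, adjusted p = 0.03864), with no overlap. Tmed4, a cargo receptor gene of the early secretory pathway, changed least, by -0.64 ± 0.14 SE, with 105.5 to 143.0 CPM in vehicle and 66.2 to 106.2 CPM in ASV. Disp1, which releases Hedgehog ligands, differed by -1.80 ± 0.40 SE, and ASV replicate 5 (16.5 CPM) overlapped vehicle replicate 1 (15.1 CPM). The calls of these 3 genes were lost without ASV replicate 4 (adjusted p = 0.1645 for Dnajc21 and 0.1968 for Tmed4 and Disp1) or vehicle replicate 2 (0.09575 to 0.1312). Those of Tmed4 and Disp1 were also lost without vehicle replicate 1 or 4 or ASV replicate 1, and further without vehicle replicate 3 for Tmed4 and ASV replicate 3 for Disp1. Stk11, the LKB1 kinase gene, was picked after its value was seen and fell by 1.12 (SE 0.26, adjusted p = 0.04921), from 22.3 to 35.7 CPM in vehicle to 10.6 to 20.2 CPM in ASV. Its call was lost without any 1 library except ASV replicate 5 (adjusted p from 0.05459 to 0.2182).

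Genes that define microglia did not pass. Csf1r, the receptor gene that microglia need to survive, was at 102.7, 188.7, 142.3 and 145.1 CPM in vehicle and at 106.0, 215.5, 187.0, 141.3 and 261.7 CPM in ASV (0.28, 95% interval -0.23 to 0.79). Ctss, a lysosomal protease gene of microglia, reached 1213 CPM in ASV replicate 5 and was lowest at 167.0 CPM in ASV replicate 3, against 298.2 to 740.8 CPM in vehicle. Cx3cr1, which drives the Cre, was at 0, 44.1, 28.0 and 34.5 CPM in vehicle and at 26.7, 42.3, 10.6, 40.96 and 76.4 CPM in ASV. Of 16 homeostatic markers 0 passed. Lysosomal genes (0 of 22 passed, 19 positive, median 0.23) included Grn, the progranulin gene, which was above vehicle in all ASV libraries (88.4 to 150.7 against 51.3 to 79.9 CPM; 0.76 ± 0.21 SE, adjusted p = 0.107). Of complement genes 0 of 12 passed (median 0.38), and antigen presentation genes (0 of 12, median 0.41) included the class I gene H2-K1 (1.36 ± 0.39 SE, adjusted p = 0.117).

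Inflammatory, stress and metabolic lists gave no call. Among 17 inflammatory and NF-κB genes the smallest p was that of Nfkbia, which encodes the inhibitor IκBα. It was at 323.3, 468.7, 1385 and 767.6 CPM in vehicle and at 170.4, 293.8, 190.0, 491.6 and 427.4 CPM in ASV (-0.97 ± 0.32 SE, adjusted p = 0.1534). Nfe2l2, the gene of the antioxidant regulator NRF2, lay just outside the threshold (1.03 ± 0.24 SE, adjusted p = 0.05321) with all ASV libraries (21.8 to 39.8 CPM) above vehicle (8.93 to 19.1 CPM), and the median of its 14-gene list was -0.09. Glycolysis genes had a median of 0.45 (0 of 18 passed), and heat shock genes 0.37 (0 of 13). Both lists were highest in ASV replicate 3, at 1.90% and 1.06% of counts, against 0.371% to 0.703% and 0.183% to 0.382% in the other 8 libraries. Of the other metabolic and stress lists, 0 of 20 cholesterol synthesis genes (median -0.19), 0 of 22 fatty acid and lipid droplet genes (-0.06), 0 of 26 nuclear genes of oxidative phosphorylation (-0.02) and 0 of 14 genes of apoptosis and p53 (-0.25) passed. The 7 mitochondrially encoded genes tested had a median of -0.80 and 0 passed. The largest difference of that list was that of mt-Nd5, at 68.6 to 353.8 CPM in vehicle and 63.0 to 176.5 CPM in ASV (-1.03 ± 0.46 SE).

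Markers of vessels were uneven. All 11 endothelial markers had positive values with a median of 1.88, and 0 passed. Kdr, the main VEGF receptor gene of endothelial cells, was at 0.558, 0.222, 1.89 and 0.112 CPM in vehicle and at 12.3, 4.91, 0, 19.1 and 2.84 CPM in ASV (3.76 ± 1.10 SE, adjusted p = 0.1194). It was highest in ASV replicates 4 and 1 and at 0 in ASV replicate 3. Flt1, another VEGF receptor gene, was at 7.57 to 11.5 CPM in vehicle and at 54.3, 38.1, 7.95, 60.6 and 12.8 CPM in ASV (1.74 ± 0.57 SE, adjusted p = 0.1509). The tight junction gene Cldn5 lay at 0.841 to 4.80 CPM in vehicle and 0.884 to 17.5 CPM in ASV. Mural cell markers had a median of 1.54 (0 of 8 passed) and took up to 0.0262% of counts in ASV replicate 1. Of 12 genes of VEGF signalling, the factor given to both groups, 0 passed (median 0.72). Vegfa itself, the VEGF-A gene, was lower in all ASV libraries (54.5 to 114.0 against 114.3 to 172.7 CPM; -0.42 ± 0.33 SE, adjusted p = 0.5646).

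Markers of other cell types gave no call. Neuron markers had a median of 0.09 (0 of 11 passed), astrocyte markers 0.12 (0 of 9) and oligodendrocyte markers -0.15 (0 of 12). Among markers of oligodendrocyte precursors 0 of 5 passed (0.48), of border macrophages 0 of 9 (0.12), and of choroid plexus and ependyma 0 of 6 (0.69). Rbfox3, a neuronal splicing factor gene, was below the vehicle range in all ASV libraries (175.5 to 259.1 against 261.4 to 372.9 CPM; -0.51 ± 0.19 SE, adjusted p = 0.1891). Its fold change was the lowest of the 11 neuron markers, of which 8 were positive and 3 negative. Of all genes, 2.39% had every ASV library below every vehicle library. Cspg4, a proteoglycan gene of oligodendrocyte precursors and pericytes, lay just outside the threshold (2.45 ± 0.58 SE, adjusted p = 0.05321), with 10.4 to 28.5 CPM in vehicle and 66.2, 71.5, 305.2, 134.2 and 35.9 CPM in ASV. Of the 5 precursor markers 4 were positive and 1 negative, Olig1 (-0.57, adjusted p = 0.2321 in edgeR's test). As a share of counts the precursor list took 0.0199% to 0.0434% in ASV and 0.0136% to 0.0191% in vehicle libraries, without overlap. The monocyte and neutrophil markers took 0.000942% to 0.00154% of counts in ASV libraries and 0% to 0.000197% in vehicle, without overlap. Of the 4 tested 0 passed (median 3.51, from vehicle levels at or near 0), with 3 positive values and 1 negative, at -1.74. The neutrophil genes S100a8 and S100a9 were at 0 in vehicle replicates 1, 2 and 4 and in ASV replicate 4, and at 2.71 to 8.54 and 1.32 to 6.19 CPM in the other ASV libraries (log2 fold change 4.85 ± 1.84 SE and 5.46 ± 1.78 SE, adjusted p = 0.1947 and 0.1541). The part of such cells in the results above was not tested.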

How the data were processed

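The deposited raw counts, whole numbers of reads per gene symbol (22327 symbols, 29 libraries), come from reads the authors trimmed and aligned to mm10; the submitters' processing notes name HISAT2 2.2.1, featureCounts 2.0.3 and Trim Galore. Annotation, strandedness and handling of multi-mapping reads are not given in the sources used here. The deposited RPKM table was not used.

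In R 4.3.3 with edgeR 4.0.16, filterByExpr by group (minimum count 10, minimum total 15) left 16074 genes. TMM factors were applied, and 1 quasi-likelihood model (group, batch, labelled sex; 20 residual degrees of freedom) was fitted to all 29 libraries. The two-sided F-test was adjusted by Benjamini-Hochberg over all genes, threshold 0.05. CPM are scaled by TMM. Intervals are 95% from the fit and, like the p-values, cover the spread between these libraries; molecular identifiers are not mentioned in the sources used here. limma 3.58.1 (voom) and DESeq2 1.42.0 were alternatives. Shares are percent of a library's counts. The procedure was tested on simulated data with the same spread per gene in all groups. That test does not cover the larger spread of the iPKR libraries. Coordinates are mm10, GENCODE M21.

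The comparison, gene lists and alternatives were chosen with earlier results of these data known. The named genes are the 12 called genes per direction with the smallest p (absolute log2 fold change at least 0.5, mean log2 CPM at least 1, no unnamed models or sex-chromosome genes), up to 4 called members of each list, up to 3 uncalled ones where none was called, and genes of the construct and the eIF2α kinases; a few are given in full. List members outside the rule (Asns, Trib3, Chac1, Isg15, Irf7, Oasl2, Ifit3, Dusp1, Fos, Jun, Nr4a1, Cldn5, Vegfa) were picked after their values were seen, as known members. No 2 libraries of a group were copies. Some genes are not reported here.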

Additional observations from a re-analysis of the deposited data

Results flagged for a closer look

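Values that lay far from the rest of their group by Dixon's criterion were found in 9 of 96 sets of values (38 genes and 10 library measures in each of the 2 groups); chance alone flags about 1 set in 20. The total of vehicle replicate 2 was 31.998 M counts, with the next at 7.079 M. Ubr3 was at 1295 CPM in vehicle replicate 1 (next 257.0) and at 7577 CPM in ASV replicate 3 (next 2613). Ier5 was at 358.0 CPM in vehicle replicate 2 (next 214.5). Aatf was at 40.85 CPM in ASV replicate 4 (next 23.22), where Tlr12 was at 0.1122 CPM with the other 4 libraries at 0. Tbc1d9b was at 213.8 CPM in ASV replicate 2 (next 159.6). App was at 2686 CPM (next 571.3) and Thy1 at 195.6 CPM (next 56.22) in ASV replicate 3, which also had the highest neuron share; the part of that share in these values was not tested.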

How the results depend on the processing

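Other size factors changed the count of 68 calls (51 higher, 17 lower) little, with 73 under RLE or upper-quartile factors (61 and 12; 83.6% higher against 75%), and the median of all genes then lay at 0.08, against 0.01. No low-count filter gave 32 (22 and 10), no batch term 20 (16 and 4), batch 1 alone 314 (153 and 161; 48.7% higher), batch 2 alone 23 (17 and 6), the 2 groups alone 0 (0 and 0), the 3 groups with the construct 0 (0 and 0), DESeq2 525 (422 and 103) and limma-voom 8 (8 and 0). Leaving out 1 library gave 10 to 179 calls, 8 to 109 higher and 2 to 70 lower. Omitting 3 libraries rich in neuron markers gave 284 (162 and 122; 57% higher). These were ASV replicate 3 and, from outside the comparison, 5xFAD iPKR replicates 1 and 2. Among alternatives chosen after seeing the data were sex from Y-linked reads, with 14 calls (11 and 3), group alone in the model, with 26 (22 and 4), and leaving out both ASV replicates 3 and 4, with 14 (12 and 2). DESeq2 kept all 68 calls. Same-numbered deviations of replicates 1 to 4 correlated at 0.01, 0.09, -0.12 and 0.01, and replicate 3 of the 2 groups lay in different batches. These values cannot decide whether the replicate numbers pair the samples. A fit with the replicate number as a block, which is partly batch, called 5 genes (5 higher, 0 lower). Trim30b, at 0 in every vehicle library, turned to -0.0233 in batch 1 alone, where the vehicle libraries thus held no read of it. The causes were not tested. The median SE over all genes was 0.39 on the log2 scale, which limits the changes that can be shown.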
